A study of Homo sapiens with 7 samples.

Results

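The miR-99, miR-100 and miR-125 microRNAs (miRNAs) are described here by 9 mature members, chosen by name from the 2652 miRNAs that the count files list: hsa-miR-99a-5p, hsa-miR-99a-3p, hsa-miR-99b-5p, hsa-miR-99b-3p, hsa-miR-100-5p, hsa-miR-100-3p, hsa-miR-125a-5p, hsa-miR-125a-3p and hsa-miR-125b-5p. They were measured by small RNA sequencing in HepG2, an established human hepatocellular carcinoma line derived from liver. Cells received siRNA 2 or siRNA 1, both meant to lower TEAD1, for 24, 36 or 48 h, with 1 library for each siRNA and time, and the labels give their genotype as TEAD1 knockdown. A further library came from untreated cells (0 h), given as WT. No library of cells given a control siRNA was analysed here, so siRNA delivery, culture time and TEAD1 loss cannot be told apart. TEAD1 is a DNA-binding factor of the Hippo pathway, and its own mRNA is not measured by these libraries. The labels do not say whether libraries came from separate cultures. A p-value between times weighs a difference against the scatter of the 2 libraries of each time, which received different siRNAs. That scatter therefore holds any difference between the siRNAs, and the rest of it may be technical.

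A mature miRNA is cut from 1 arm of a hairpin precursor (the 5p or the 3p arm), is loaded into an Argonaute protein and lowers target mRNAs that pair with its seed, bases 2 to 8 from its 5′ end. The miR-99 and miR-100 sequences are known to target mTOR and other genes of growth signalling, and the miR-125 sequences are relatives of lin-4 of Caenorhabditis elegans. In vertebrates these genes lie in clusters with a let-7 gene between or beside them, and miR-125b is made from both of the larger clusters.

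The sequences show how close the members are, which bears on every value below, since reads are told apart by few bases. They come from RefSeq (GRCh38.p14), where all 9 names matched, and the seed is in capitals. The 9 members hold 5 seeds. The 5p arms of miR-99a, miR-99b and miR-100 share ACCCGUA, which no other of the 2370 mature miRNAs of the table has.
hsa-miR-99a-5p: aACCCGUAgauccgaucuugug
hsa-miR-100-5p: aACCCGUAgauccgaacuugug
hsa-miR-99b-5p: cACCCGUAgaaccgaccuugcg
The 5p arms of miR-125a and miR-125b share CCCUGAG, which miR-4319 has as well.
hsa-miR-125a-5p: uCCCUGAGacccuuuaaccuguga
hsa-miR-125b-5p: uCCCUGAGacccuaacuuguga
Of the 3p arms, those of miR-99a and miR-99b share AAGCUCG, while miR-100-3p and miR-125a-3p have seeds of their own.
hsa-miR-99a-3p: cAAGCUCGcuucuaugggucug
hsa-miR-99b-3p: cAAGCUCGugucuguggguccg
hsa-miR-100-3p: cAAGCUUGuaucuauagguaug
hsa-miR-125a-3p: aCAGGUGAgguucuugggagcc
Counted from 1 at the 5′ end, miR-100-5p differs from miR-99a-5p by U16A alone, with 22 bases each. miR-99b-5p differs from miR-99a-5p by A1C, U11A, U16C and U21C. miR-125a-5p and miR-125b-5p, of 24 and 22 bases, share their first 13 bases. How the authors treated a read that fits 2 such sequences is not given in the sources used here.

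The 9 members come from 6 hairpin genes on 3 chromosomes. MIR99A (mature 5p arm at chr21:16539101-16539122, plus strand) lies in an intron of the long noncoding gene MIR99AHG, with 678 bases between its mature arms and those of MIRLET7C and 51093 bases to MIR125B2. MIR100 (chr11:122152275-122152296, minus strand) lies in an intron of MIR100HG, 5650 bases from MIRLET7A2 and 52409 bases from MIR125B1. MIR99B (chr19:51692618-51692639, plus strand) lies in an intron of the protein-coding gene SPACA6, 115 bases from MIRLET7E and 590 bases from MIR125A (chr19:51693268-51693291), and the antisense noncoding gene SPACA6P-AS overlaps both. Host genes are from GENCODE v29 on the same assembly. miR-125b-5p is cut from MIR125B1 (chr11:122099809-122099830) and MIR125B2 (chr21:16590253-16590274), whose reads cannot be told apart. Read side by side, the hairpins of MIR99A and MIR100 have nearly the same 5p arm and more different 3p arms (arms in capitals), so a 3p read identifies its hairpin more surely.
MIR99A: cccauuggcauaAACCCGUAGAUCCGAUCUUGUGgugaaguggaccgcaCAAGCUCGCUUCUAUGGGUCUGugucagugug
MIR100: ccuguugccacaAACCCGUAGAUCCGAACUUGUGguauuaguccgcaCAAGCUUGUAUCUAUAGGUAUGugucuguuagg
miR-100-3p differs from miR-99a-3p by C7U, C9U, U10A, G16A and C20A.

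Libraries held 1920832 to 6171851 reads assigned to a miRNA, of 13134601 to 15591345 reads in all, and the untreated library had the most reads assigned to a miRNA. Levels are CPM values of edgeR, reads relative to a library's TMM-scaled miRNA total, and their intervals are 95% Clopper-Pearson intervals that cover counting error only. In miR-99a-5p and miR-100-5p the library of siRNA 1 at 36 h lay with those of 24 h and untreated cells, and that of siRNA 2 at 36 h with those of 48 h. Over all tested miRNAs, log2 siRNA 2 over siRNA 1 had an SD of 0.57, 1.22 and 0.50 at 24, 36 and 48 h. Whether a 36 h library goes against its label was not tested, which limits every value at 36 h and every comparison of siRNAs. The ratio of miR-100-5p over miR-99a-5p was alike in both 36 h libraries and lay between those of 24 h and 48 h. Results are therefore given with and without the 36 h libraries. The 4 liver markers summed to 16112 to 27484 CPM after siRNA and 21025 CPM in untreated cells, but miR-122-5p, the most liver-specific of them, stood at 3.76 to 47.6 CPM after siRNA and 45.5 CPM in untreated cells. Of markers of other cell types, the sum of 6 fibroblast and endothelial miRNAs was 442 to 1068 CPM after siRNA and 458 CPM in untreated cells, highest in both 36 h and both 48 h libraries. The sum of 3 muscle miRNAs was 876 CPM with siRNA 1 at 36 h and at most 52.8 CPM elsewhere. Of the 876 CPM, miR-1-3p alone held 867 CPM, while miR-133a-3p and miR-206 reached at most 2.53 and 6.58 CPM after siRNA. The sum of 6 blood miRNAs was 16.3 to 78.8 CPM after siRNA and 15.9 CPM in untreated cells, and that of 3 neuronal miRNAs 40.0 to 51.5 CPM after siRNA and 34.3 CPM in untreated cells. Most of these sums came from 1 or 2 miRNAs. In untreated cells miR-148a-3p held 18426 CPM of the liver sum and miR-9-5p 25.2 CPM of the neuronal sum. There miR-126-3p and miR-143-3p held 294 and 159 CPM of the fibroblast and endothelial sum. After siRNA miR-451a reached 73.1 CPM of the blood sum. Of these lists, miR-124-3p of neurons and miR-223-3p of blood had 0 reads in all 7 libraries. The part of other cells' RNA in the results was not tested.

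Together the 9 members made up 7.11% of all miRNA reads in untreated cells, and 5.69%, 16.7% and 14.6% after 24, 36 and 48 h of siRNA 2. With siRNA 1 the shares were 7.16%, 7.62% and 13.2% at those times. Both 48 h libraries and siRNA 2 at 36 h thus lay above the other 4 libraries. miR-100-5p and miR-99a-5p carried nearly all of it: among all miRNAs miR-100-5p ranked from 2 to 7 and miR-99a-5p from 3 to 9 by level. At 48 h they took ranks 4 and 3 with either siRNA, while in untreated cells they took ranks 7 and 8. The shares are of miRNA reads without TMM scaling and depend on what else a library holds. With total miRNA counts as the scale, the median log2 fold change of all tested miRNAs at 48 h against untreated cells was itself 0.33.

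**Figure D1:**
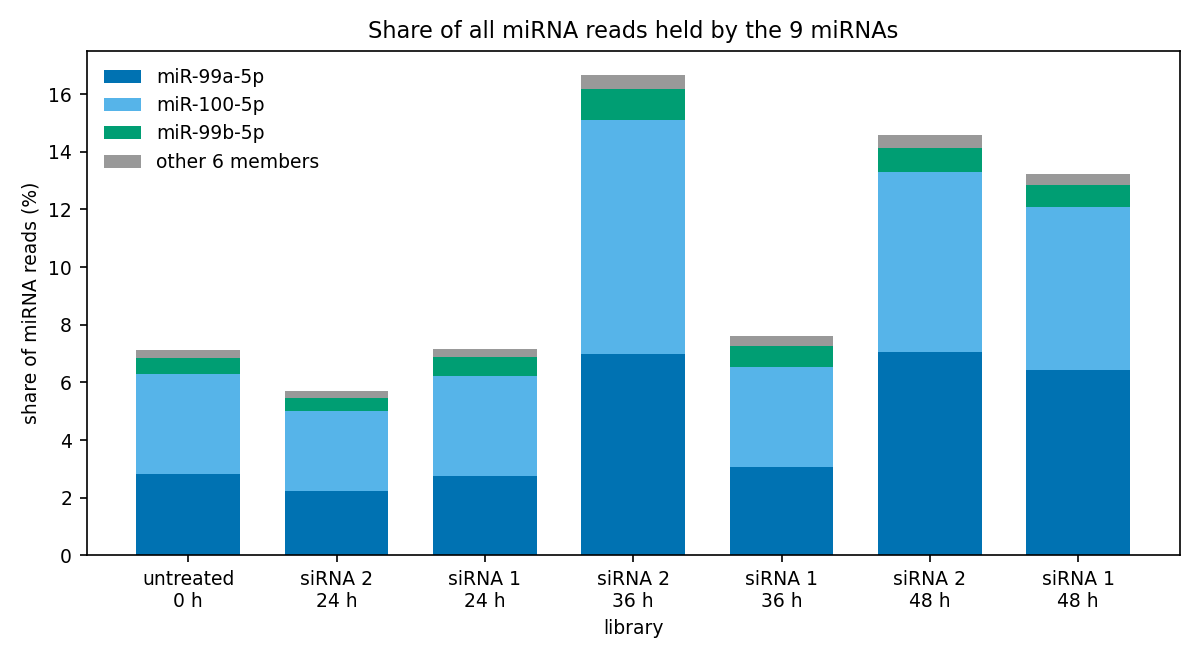
Share of all miRNA reads (%, vertical axis) held by the 9 miRNAs in each of the 7 libraries, split into miR-99a-5p, miR-100-5p, miR-99b-5p and the other 6. The total was 16.7%, 14.6% and 13.2% in siRNA 2 at 36 h and the 48 h libraries and at most 7.62% elsewhere.

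The levels of the members spanned a wide range, and since all mature sequences have 22 or 24 bases, their CPM values were compared without length scaling. Over the 6 siRNA-treated libraries miR-100-5p averaged 46893 ± 14494 CPM (SD, n = 6) and miR-99a-5p 44533 ± 17287 CPM. Both were read in the same libraries and share much of that spread, so these SDs do not show whether they differ. Within a library miR-100-5p over miR-99a-5p was 1.24, 1.17 and 0.89 after 24, 36 and 48 h of siRNA 2. With siRNA 1 it was 1.25, 1.15 and 0.88. miR-99b-5p followed at 7154 ± 1168 CPM and its 3p arm at 1507 ± 203 CPM. miR-125b-5p averaged 993 ± 204 CPM and miR-125a-5p 927 ± 301 CPM. Which of them was higher varied by library: with both siRNAs it was miR-125b-5p at 24 h and miR-125a-5p at 48 h. Far below stood miR-125a-3p at 40.6 ± 4.91 CPM, miR-99a-3p at 6.46 ± 4.22 CPM and miR-100-3p at 3.95 ± 3.79 CPM. These last 3 come from the arm of the hairpin that is mostly degraded. miR-99a-3p lay above miR-100-3p in each siRNA-treated library except that of siRNA 2 at 24 h, on few reads.

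miR-99a-5p, which represses mTOR in several tumour lines, was about doubled at 48 h against 24 h with both siRNAs. Its level was 32313 CPM in untreated cells, and 26285, 59634 and 61596 CPM after 24, 36 and 48 h of siRNA 2. With siRNA 1 it was 30528, 29647 and 59507 CPM. The 48 h libraries lay above those of 24 h and untreated cells without overlap, and the 36 h libraries lay 1 with each side. The mean level was 60552 CPM at 48 h and 28406 CPM at 24 h (n = 2 each), a ratio of 2.13.

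miR-100-5p, which differs from it by 1 base and is cut from another chromosome, lay above untreated cells in the same 3 libraries, with a smaller ratio of 48 h over 24 h. Untreated cells held 40010 CPM, the libraries of siRNA 2 held 32554, 69526 and 54851 CPM at 24, 36 and 48 h, and those of siRNA 1 held 38233, 34003 and 52191 CPM. Both 48 h libraries lay above both 24 h libraries and the untreated one, with a ratio of means of 1.51 (53521 over 35393 CPM). Its highest value was that of siRNA 2 at 36 h, not of 48 h.

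miR-99b-5p, the chromosome 19 member with the same seed, moved little. Untreated cells held 6476 CPM, siRNA 2 gave 5427, 9099 and 7122 CPM at 24, 36 and 48 h, and siRNA 1 gave 7238, 7075 and 6964 CPM. The 48 h values lay inside the range of the 24 h values. The 3 miRNAs with the seed ACCCGUA together held 123570 and 118662 CPM at 48 h with siRNA 2 and siRNA 1, 64266 and 75998 CPM at 24 h, and 78799 CPM in untreated cells. Within that sum the share of miR-99a-5p was 49.8% and 50.1% at 48 h with siRNA 2 and siRNA 1, 40.9% and 40.2% at 24 h and 41.0% in untreated cells.

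**Figure D2:**
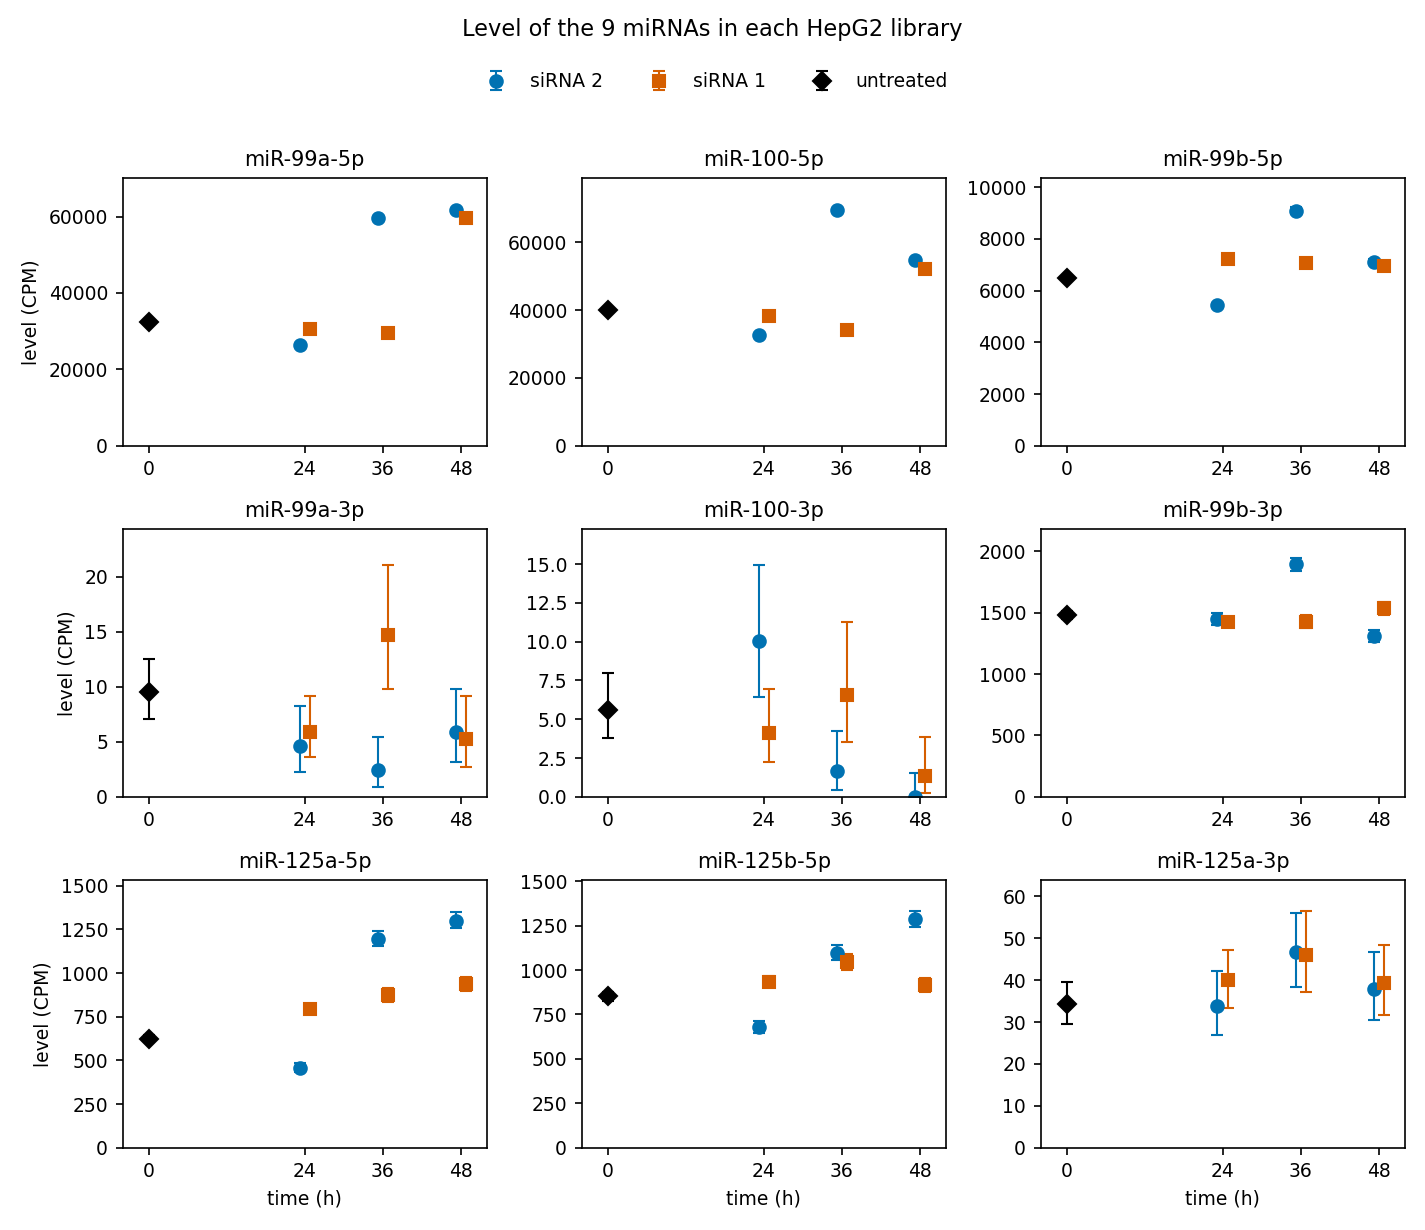
Level (CPM, linear vertical axis from 0, each panel with its own scale) of each of the 9 miRNAs against time (h), with siRNA 2 as circles, siRNA 1 as squares (set slightly apart) and the untreated library as a diamond at 0 h. Bars are 95% Clopper-Pearson intervals of the count in that library, and miR-99a-5p and miR-100-5p lie above untreated at 48 h with both siRNAs and at 36 h with siRNA 2.

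The balance of the closely related miR-100-5p and miR-99a-5p shifted with time in the same way for both siRNAs. This ratio is taken within a library and so does not depend on scaling. The log2 ratio of miR-100-5p over miR-99a-5p was 0.31 in untreated cells, and 0.31, 0.22 and -0.17 after 24, 36 and 48 h of siRNA 2. With siRNA 1 it was 0.32, 0.20 and -0.19. At each time the siRNAs differed by less than the step from 24 to 36 h and from 36 to 48 h, and only the 48 h libraries had more miR-99a-5p than miR-100-5p. The mean over the 6 siRNA-treated libraries was 0.12 ± 0.23 (SD). At 36 h, where the levels of both miRNAs with siRNA 2 were about double those with siRNA 1, the ratio was alike in both libraries. With 2 libraries against 2 the smallest two-sided exact permutation p is 0.333, so 48 h against 24 h could not pass by that test.

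The miR-125 members are the vertebrate relatives of lin-4 and are known to act on targets such as LIN28 and BAK1. miR-125a-5p stood at 626 CPM in untreated cells, at 458, 1198 and 1300 CPM with siRNA 2, and at 795, 874 and 935 CPM with siRNA 1. Both 48 h libraries lay above both 24 h libraries, at a ratio of means of 1.78 (1118 over 626 CPM), and 5 of 6 siRNA-treated libraries lay above untreated cells. miR-125b-5p stood at 853 CPM in untreated cells, at 679, 1097 and 1288 CPM with siRNA 2 and at 935, 1045 and 915 CPM with siRNA 1. Its 48 h and 24 h values overlapped, since siRNA 1 gave 915 CPM at 48 h and 935 CPM at 24 h.

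Within the sum of the seed CCCUGAG, the share of miR-125a-5p was 50.2% and 50.5% at 48 h with siRNA 2 and siRNA 1, 40.3% and 45.9% at 24 h, and 42.3% in untreated cells. miR-4319, the other miRNA with that seed, had 0 reads in all 7 libraries. miR-125a-5p also moved relative to miR-99b-5p, which is cut from the same chromosome 19 cluster. The log2 ratio of miR-125a-5p over miR-99b-5p was -3.37 in untreated cells, -3.57, -2.93 and -2.45 along the times of siRNA 2, and -3.19, -3.02 and -2.90 along those of siRNA 1. It was higher at each later time with either siRNA, by a wider span with siRNA 2. miR-125b-5p showed no such order against its neighbours: its log2 ratio over miR-99a-5p was -5.28, -5.76 and -5.58 with siRNA 2, -5.03, -4.83 and -6.02 with siRNA 1, and -5.24 in untreated cells. Over miR-100-5p it averaged -5.53 ± 0.35 (SD, n = 6) after siRNA and was -5.55 in untreated cells.

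At 48 h against 24 h the 3p arm of miR-100 was lower where its 5p arm was higher, and the 3p arm of miR-99a overlapped. Both 3p arms had few reads, and the difference in change between arms was not tested. miR-100-3p had 30 reads in untreated cells (5.60 CPM), 24, 4 and 0 reads along the times of siRNA 2, and 14, 13 and 3 reads along those of siRNA 1. Of all reads from both arms of MIR100, the 3p arm made up 14.0 per 100000 in untreated cells, 30.8, 2.37 and 0 with siRNA 2, and 10.8, 19.4 and 2.51 with siRNA 1. The count of 0 allows up to 2.28 per 100000 when taken as 3 reads, and the Clopper-Pearson interval reaches 2.81. Both 48 h libraries lay below both 24 h libraries, and at 36 h siRNA 2 lay with the 48 h libraries and siRNA 1 with the others. Summed over siRNAs, 3 of 250851 reads were 3p at 48 h and 38 of 207150 at 24 h, a ratio of 0.0652 (exact Poisson interval 0.0129 to 0.205, counting error only).

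miR-99a-3p had 51 reads in untreated cells (9.51 CPM), 11, 6 and 14 reads with siRNA 2 (4.60, 2.48 and 5.84 CPM) and 20, 29 and 12 reads with siRNA 1 (5.91, 14.7 and 5.24 CPM). Its level overlapped between 48 h and 24 h, and 5 of 6 siRNA-treated libraries lay below untreated cells. As a part of both arms of MIR99A it made up 29.4 per 100000 in untreated cells, 17.5, 4.15 and 9.49 with siRNA 2 and 19.4, 49.5 and 8.81 with siRNA 1. At 48 h against 24 h the summed part was 9.16 against 18.7 per 100000, a ratio of 0.491 (0.280 to 0.854). The level of the 3p arm itself averaged 5.54 CPM at 48 h and 5.26 CPM at 24 h, while that of the 5p arm was 2.13 times as high at 48 h. In the fit of all libraries miR-99a-3p had a log2 fold change of 0.07 ± 0.80 (SE). That error is wide enough to include the 1.09 of the 5p arm.

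The chromosome 19 hairpins keep much more of their 3p arms. miR-99b-5p made up 81.4% of both arms of MIR99B in untreated cells, 78.9%, 82.8% and 84.4% with siRNA 2 and 83.6%, 83.2% and 81.9% with siRNA 1. This share had no common order in time for the siRNAs, and its mean after siRNA was 82.5% ± 1.93 (SD, n = 6). miR-99b-3p itself stood at 1480 CPM in untreated cells, at 1450, 1894 and 1312 CPM with siRNA 2 and at 1422, 1428 and 1535 CPM with siRNA 1, with 48 h and 24 h overlapping. For MIR125A the 5p share was 94.8% in untreated cells, 93.1%, 96.3% and 97.2% with siRNA 2 and 95.2%, 94.99% and 96.0% with siRNA 1. Both 48 h values lay above both 24 h values. With siRNA 1 their Clopper-Pearson intervals overlapped, at 95.1% to 96.7% for 48 h and 94.4% to 96.0% for 24 h. miR-125a-3p stood at 34.3 CPM in untreated cells, at 33.9, 46.6 and 38.0 CPM with siRNA 2 and at 39.9, 46.1 and 39.3 CPM with siRNA 1, so its 48 h and 24 h values overlapped while the 5p arm differed.

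**Figure D3:**
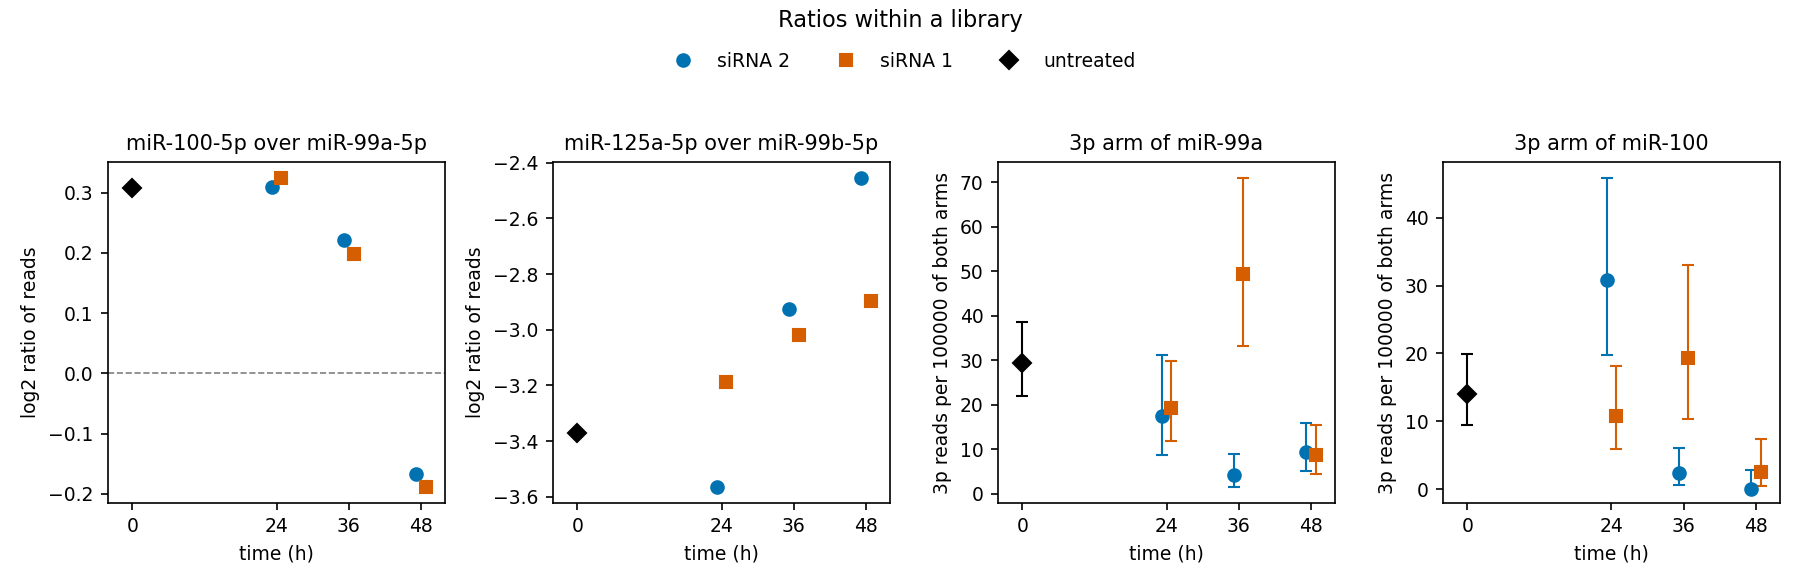
Ratios within a library against time (h), for siRNA 2 (circles), siRNA 1 (squares, set slightly apart) and untreated cells (diamond at 0 h): log2 read ratios of member pairs in the left panels, and 3p reads per 100000 reads of both arms with 95% Clopper-Pearson intervals in the right panels. The ratio of miR-100-5p over miR-99a-5p falls below 0 (dashed line) in the 48 h libraries, at -0.17 and -0.19, and the 3p part of miR-100 is at most 2.51 there.

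The comparison of 48 h with 24 h of siRNA asked how levels changed over the course of treatment. In the edgeR quasi-likelihood fit of all 7 libraries none of the 9 members passed an adjusted p of 0.05, and the share of all 458 tested miRNAs that passed was 0% as well. At an unadjusted p under 0.05 there were 2 members of 9 and 84 miRNAs of 458, and DESeq2 called 0 members and 23 miRNAs. DESeq2 gave miR-100-3p no adjusted p there (log2 fold change -3.45 ± 1.33, SE), so that member could not be called. miR-99a-5p had a log2 fold change of 1.09 ± 0.35 (SE, edgeR adjusted p = 0.244) and miR-100-3p one of -3.35 ± 1.19 (edgeR adjusted p = 0.244). miR-125a-5p had 0.84 ± 0.36 and miR-100-5p 0.60 ± 0.35 (edgeR adjusted p = 0.276 and 0.393). The value of miR-100-3p moved to -7.39 without siRNA 1 at 48 h, which leaves 0 reads at that time, and to -2.38 without siRNA 2 at 48 h. That of miR-125a-5p moved to 1.28 without siRNA 1 at 24 h and to 0.55 without siRNA 2 at 24 h. The median over the 9 members was 0.15, against 0.03 over all tested miRNAs. By separation alone, 3 members (33.3%) had both 48 h libraries above both 24 h libraries, where 28.2% of tested miRNAs did, and 1 member (11.1%) had both below, where 33% did.

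Without both 36 h libraries the fitted changes hardly moved and their errors shrank. Of the 9 members 3 rose at 48 h against 24 h and 1 fell, in a fit that called 28.7% of 467 miRNAs. miR-99a-5p rose by 1.08 ± 0.20 on the log2 scale (SE, edgeR adjusted p = 9.9e-07), in 2 of 2 libraries. miR-125a-5p rose by 0.83 ± 0.22 (edgeR adjusted p = 0.00132) and miR-100-5p by 0.58 ± 0.20 (edgeR adjusted p = 0.0137). miR-100-3p fell by 3.36 ± 0.79 (edgeR adjusted p = 2.0e-04), a fitted value that rests on 3 reads at 48 h. At an unadjusted p under 0.05 this fit held 5 members and 191 miRNAs, and DESeq2 on the same libraries called the same 4 members and 21.8% of 467 miRNAs. With all reads of a library as the scale these 3 rises kept their sign in that fit (0.88, 0.58 and 0.39) but did not pass, and the fall of miR-100-3p passed. The fit drops the pair of libraries with the widest spread, which makes its p-values too small where such spread belongs to the treatment. That pair was set apart on values that include those of miR-99a-5p and miR-100-5p, so the p-values of this fit are descriptions only. The same libraries differed in other markers: the fibroblast and endothelial sum was 837 and 840 CPM at 48 h with siRNA 2 and siRNA 1 and 505 and 442 CPM at 24 h, and in this fit miR-143-3p of that list rose by 1.19 ± 0.25 while miR-122-5p of liver fell by 2.22 ± 0.47 (SE, edgeR adjusted p = 1.6e-05 and 2.1e-05). In the fit of all libraries the other liver markers changed by 0.56 (miR-192-5p), 0.14 (miR-194-5p) and -0.39 (miR-148a-3p). The liver sum was 16956 and 20676 CPM at 48 h with siRNA 2 and siRNA 1. At 24 h that sum was 27484 and 17991 CPM, so the times overlapped. Of the fibroblast and endothelial list, miR-126-3p, miR-199a-3p and miR-199a-5p changed by 0.50, 0.59 and 0.24 in the fit of all libraries. The part of these markers in the members' changes was not tested.

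Against untreated cells, the change at 48 h was of like size and less certain. In the fit of all libraries 0 of 9 members and 0% of 458 miRNAs were called by edgeR at 48 h, with 0 members and 53 miRNAs at an unadjusted p under 0.05, and DESeq2 called 0 members and 12 miRNAs. Without the 36 h libraries 2 members rose, 1 fell and 25.1% of 467 miRNAs were called. miR-99a-5p rose by 0.95 ± 0.25 and miR-125a-5p by 0.89 ± 0.28, while miR-100-3p fell by 3.0 ± 0.86 (SE, edgeR adjusted p = 0.00136, 0.0106 and 0.00385). DESeq2 on the same libraries called miR-99a-5p and miR-125a-5p but not miR-100-3p (DESeq2 adjusted p = 0.122), with 16.5% of 467 miRNAs called. Leaving out 1 library of the 7 moved the value of miR-100-3p to -7.07 without siRNA 1 at 48 h and to -2.06 without siRNA 2 at 48 h. miR-100-5p, at 0.47 ± 0.25, did not pass (edgeR adjusted p = 0.150). With all reads as the scale, miR-99a-5p and miR-125a-5p changed sign against untreated cells at 48 h (-0.21 and -0.27 in that fit), since that scale shifts the median of all miRNAs to -1.17. Reads assigned to no feature were 73.5% to 86.6% of siRNA-treated libraries and 56.9% of the untreated one, and the part of that difference in the members' values was not tested.

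**Figure D4:**
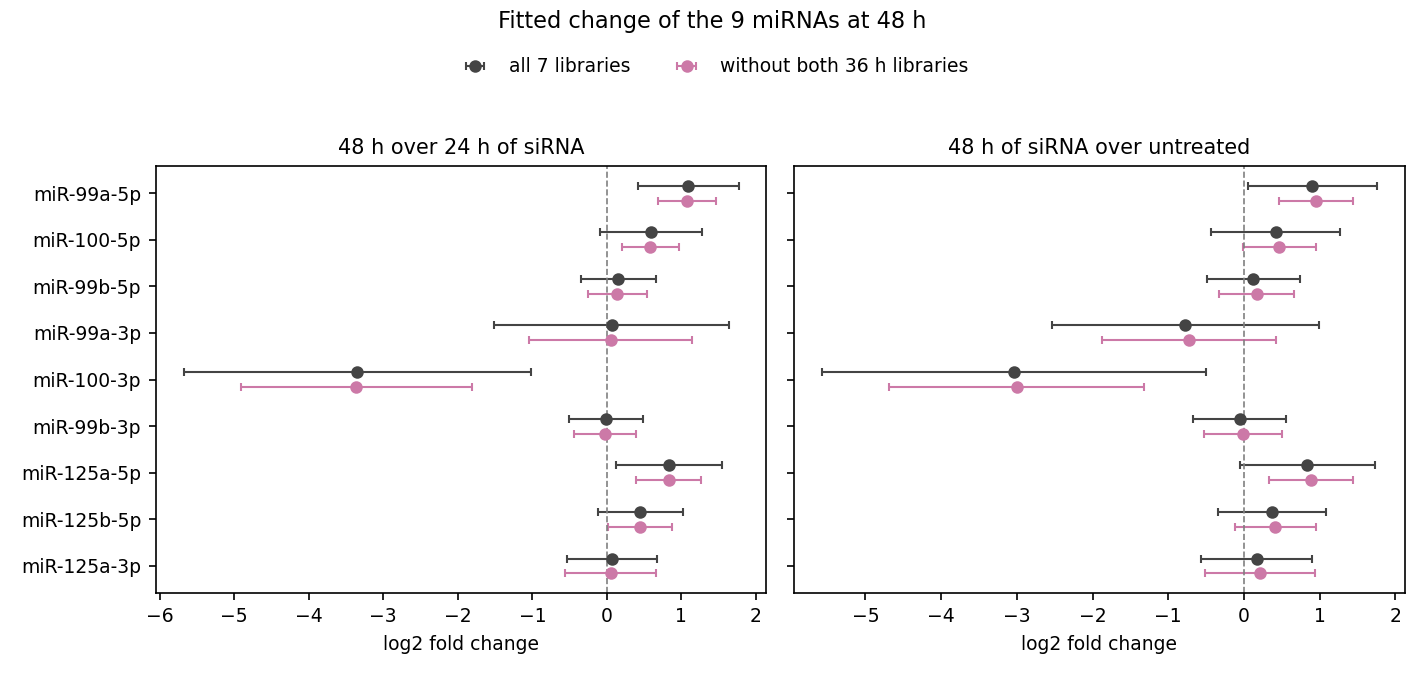
Fitted log2 fold change (horizontal axis) of each member at 48 h over 24 h of siRNA (left) and at 48 h of siRNA over untreated cells (right), with approximate 95% intervals from the standard errors, from all 7 libraries and without the 36 h libraries. Points hardly differ between fits: for miR-99a-5p at 48 h over 24 h the values are 1.09 and 1.08. Intervals narrow without the 36 h libraries. With all 7 libraries they are narrower than the edgeR F-test allows, so an interval that excludes 0 is not a passed test. At 48 h over untreated cells that of miR-99a-5p runs from 0.05 to 1.76, with an unadjusted edgeR p of 0.0766. At 48 h over 24 h that of miR-125a-5p runs from 0.13 to 1.54, with an unadjusted edgeR p of 0.0547.

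At 24 h and 36 h no member was called against untreated cells. edgeR called 0% of 458 miRNAs at either time, with 0 members and 11 miRNAs at 24 h and 0 members and 19 miRNAs at 36 h at an unadjusted p under 0.05. DESeq2 called 0 members at either time, and 1 and 7 miRNAs. The 24 h fit without the 36 h libraries called 0 members and 2.78% of 467 miRNAs, with 0 members and 39 miRNAs at an unadjusted p under 0.05, and DESeq2 called 0 members and 0.857% of miRNAs. Log2 fold changes of the 5p arms at 24 h ran from -0.19 ± 0.42 (SE) for miR-99a-5p to 0.00 ± 0.44 for miR-125a-5p. At 36 h they ran from 0.32 ± 0.32 for miR-99b-5p to 0.73 ± 0.45 for miR-125a-5p, but without the siRNA 1 library at 36 h edgeR called miR-99a-5p, miR-100-5p and miR-125a-5p as higher, along with 19.8% of 459 miRNAs called in either direction.

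Over the 3 times against untreated cells, 0 of 9 members were called, with 0% of 458 miRNAs in the fit of all libraries and 10.7% of 467 without the 36 h libraries, where the mean is that of 24 and 48 h. In that smaller fit 1 member and 98 miRNAs had an unadjusted p under 0.05, and DESeq2 called 0 members and 5.57% of miRNAs. At an unadjusted p under 0.05 the fit of all libraries held 0 members and 23 miRNAs, and DESeq2 called 0 members and 1 miRNA. The median log2 fold change of the members was 0.20, against -0.05 over all tested miRNAs. The largest was 0.52 ± 0.40 (SE) for miR-125a-5p and the smallest -1.07 ± 0.91 for miR-100-3p. None of the 9 members had all 6 siRNA-treated libraries above untreated cells, as 10.3% of tested miRNAs had, and none had all 6 below, as 13.5% had. With 6 libraries against 1 the smallest two-sided exact permutation p is 0.143.

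At 36 h the siRNAs differed about 2-fold for miR-99a-5p and miR-100-5p, while miR-125a-5p, miR-125b-5p, miR-99b-5p and miR-125a-3p differed most at 24 h or 48 h. miR-99a-5p with siRNA 2 over siRNA 1 had ratios of 0.861, 2.01 and 1.04 at 24, 36 and 48 h, and miR-100-5p one of 0.851, 2.04 and 1.05 at those times. miR-125a-5p had 0.577, 1.37 and 1.39, and miR-125b-5p 0.726, 1.05 and 1.41. The other 3p arms differed most at 36 h as well, with ratios of 1.33 for miR-99b-3p, 0.169 for miR-99a-3p and 0.251 for miR-100-3p. The last 2 rest on few reads and lay opposite to their 5p arms, and miR-100-3p has no ratio at 48 h, where siRNA 2 gave 0 reads. At 24, 36 and 48 h the median over members of the absolute log2 difference was 0.32, 0.45 and 0.14. With time in the fit, edgeR called 0 of 8 members and 0% of 435 miRNAs for siRNA 2 against siRNA 1, with 0 members and 6 miRNAs at an unadjusted p under 0.05, and DESeq2 called 0 of each. miR-100-3p did not reach the count filter there. Log2 fold changes ran from -0.84 ± 0.68 (SE) for miR-99a-3p to 0.32 ± 0.30 for miR-100-5p.

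The neighbours of the members in their clusters gave a further view of each locus. Of 7 neighbours tested (let-7c-5p, let-7c-3p, let-7a-2-3p, let-7e-5p, let-7e-3p, miR-125b-1-3p and miR-125b-2-3p), 0 were called in the comparisons of times, with or without the 36 h libraries, and 0 of the 6 tested were called for siRNA 2 against siRNA 1. The fits of all libraries called 0% of all tested miRNAs in each comparison. Without the 36 h libraries 28.7% were called for 48 h against 24 h. Against untreated cells that fit called 25.1% at 48 h, 2.78% at 24 h and 10.7% for the mean of these times. let-7c-5p, 678 bases from miR-99a on chromosome 21, stood at 3128 CPM in untreated cells, at 3095, 2871 and 3969 CPM with siRNA 2 and at 3576, 3382 and 3424 CPM with siRNA 1. Its 48 h and 24 h values overlapped, and its log2 fold change was 0.15 ± 0.24 (SE) where that of miR-99a-5p was 1.09 ± 0.35. miR-125b-2-3p of the same host gene stood at 441 and 430 CPM at 48 h with siRNA 2 and siRNA 1, and 395 and 544 CPM at 24 h, which overlap. On chromosome 11, miR-125b-1-3p stood at 197 and 236 CPM at 48 h with siRNA 2 and siRNA 1, 180 and 126 CPM at 24 h and 168 CPM in untreated cells, without overlap of 48 h and 24 h. On chromosome 19, let-7e-5p, which lies between miR-99b and miR-125a, stood at 3551 and 3208 CPM at 48 h, 3010 and 3483 CPM at 24 h and 3009 CPM in untreated cells, with overlap, while miR-125a-5p on its far side had both 48 h libraries above both 24 h libraries. The difference in change between a member and its neighbour was not tested.

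**Figure D5:**
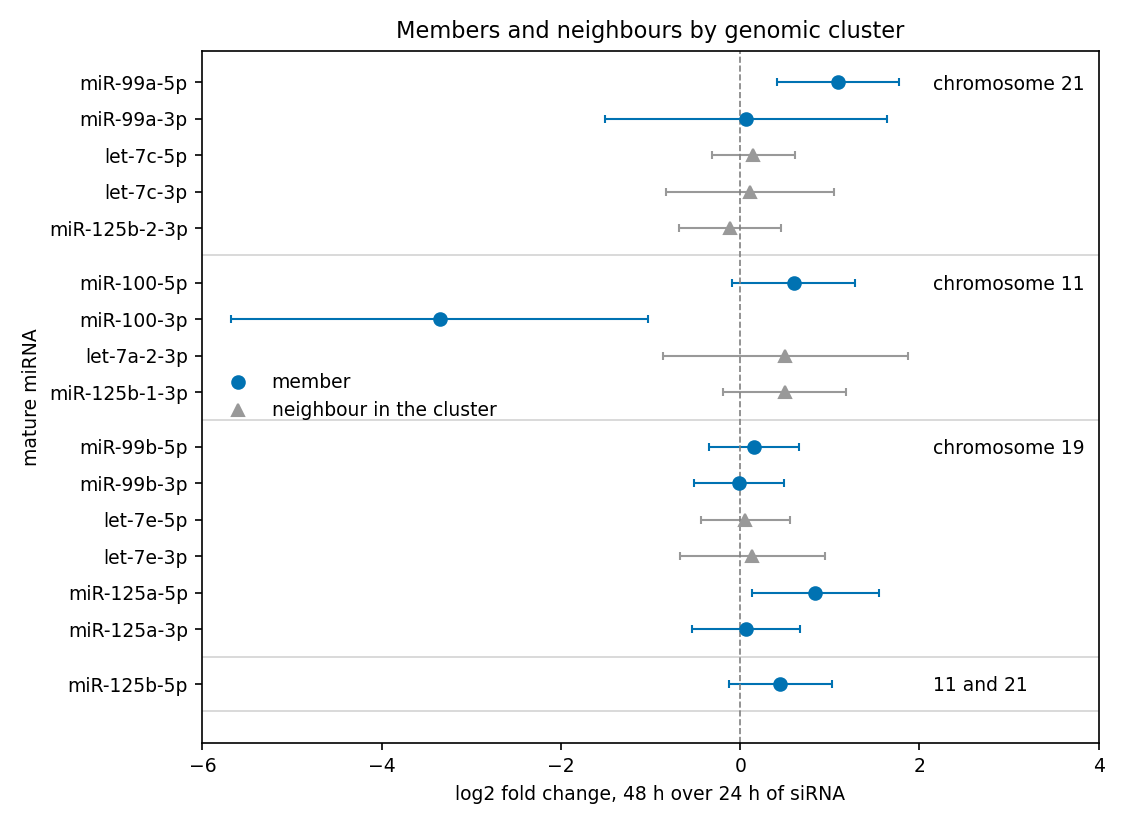
Fitted log2 fold change at 48 h over 24 h of siRNA (horizontal axis, all 7 libraries, bars of approximate 95% intervals) for members (circles) and their cluster neighbours (triangles), grouped by chromosome. miR-99a-5p (1.09) lies right of let-7c-5p (0.15) and miR-125a-5p (0.84) right of let-7e-5p, with overlapping intervals. miR-100-3p lies farthest left. The bars are narrower than the edgeR F-test allows, so a bar that excludes 0 is not a passed test.

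The relatives miR-10a-5p and miR-10b-5p, whose sequences resemble miR-99 and miR-100 but whose seed differs, are given for comparison, and their difference from the members was not tested. miR-10a-5p stood at 5407 and 6295 CPM at 48 h with siRNA 2 and siRNA 1, 4851 and 5841 CPM at 24 h and 6333 CPM in untreated cells, so that 48 h and 24 h overlapped. At 36 h it stood at 6444 CPM with siRNA 2 and 4229 CPM with siRNA 1, its highest and lowest values, a split in the same direction as that of miR-100-5p. miR-10b-5p stayed between 928 and 1135 CPM in all 7 libraries. By the root mean square difference of centred log2 CPM over the 7 libraries, the miRNA most like miR-99a-5p among 275 candidates was miR-128-3p (0.106, where the median candidate had 0.578). It stood at 7169 and 7784 CPM at 48 h with siRNA 2 and siRNA 1, 3819 and 3835 CPM at 24 h and 3905 CPM in untreated cells. miR-3615 and miR-1180-3p came next, at 0.160 and 0.174, and miR-100-5p itself lay at 0.208 from miR-99a-5p. For miR-100-5p the closest were miR-3909, miR-18a-3p and miR-193a-5p (0.0998, 0.140 and 0.142), and for miR-125a-5p they were miR-378a-5p, miR-484 and miR-423-3p (0.169, 0.196 and 0.235). For miR-125b-5p they were miR-767-5p, miR-191-5p and miR-92b-3p (0.102 to 0.122). miR-99b-5p lay closest to miR-505-3p, miR-25-3p and miR-191-5p (0.0728 to 0.0992), miR-99b-3p to miR-28-3p, miR-183-5p and miR-320b (0.0964 to 0.130), and miR-125a-3p to miR-6720-3p, miR-99b-5p and miR-25-3p (0.112 to 0.123). miR-99b-3p and miR-125a-3p themselves differed from a flat profile by only 0.154 and 0.166, with median candidates at 0.387 and 0.409. Their likenesses are therefore largely those of miRNAs that change little. All these likenesses share the 7 libraries and their depth and are descriptions.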

How the data were processed

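Small RNA libraries of HepG2 cells were made from total RNA with the NEBNext multiplex small RNA kit, per the labels' protocols. The authors deposited unnormalized counts of reads for each mature miRNA, in 1 file for every library. Which aligner, counter and genome build they used is not given in the sources used here. The 5 summary lines of each file were left out of library sizes and tests; reads with no feature were 73.5% to 86.6% of siRNA-treated libraries and 56.9% of the untreated one. Members and lists were chosen with earlier results of these data known, and all members, cluster neighbours, relatives by seed or sequence and the 3 nearest profiles of each member with a mean count of at least 50 are named.

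Counts of miRNAs with a mean of at least 10 were fitted with edgeR 4.0.16 (R 4.3.3; quasi-likelihood F-test, TMM, Benjamini-Hochberg adjustment over all tested miRNAs, threshold 0.05). Untreated and the 3 times formed 1 fit, so the single untreated library is taken to vary as the others do. siRNA 2 against siRNA 1 used 6 libraries with time as a factor. Log2 CPM used a prior count of 2. DESeq2 1.42.0, other scales and filters, a block and left-out libraries were alternatives. Scripts were tested on simulated data. A fold change is on the log2 scale, and 3 reads is the limit that a count of 0 allows. Sequences are from RefSeq GRCh38.p14. Figures used matplotlib 3.10.9.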

Additional observations from a re-analysis of the deposited data

Results flagged for a closer look

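Each of 17 measures was compared between times and between siRNAs. In 4 of these comparisons the libraries of a later time and those of 24 h lay on opposite sides of the untreated one. hsa-miR-99a-5p lay above untreated in both 48 h libraries and below it in both 24 h libraries, with a log2 ratio of means of 1.09. hsa-miR-100-5p did the same, at 0.60. Of all tested miRNAs 28.2% had both 48 h libraries above both 24 h libraries. How many of those also had untreated cells in between was not counted. The log2 ratio of miR-100-5p over miR-99a-5p lay below untreated at 48 h and above it at 24 h, by a difference of means of -0.49, and likewise at 36 h against 24 h, by -0.11. That ratio was 0.31 and 0.32 at 24 h with siRNA 2 and siRNA 1 and 0.31 in untreated cells, so that its 24 h libraries hardly left the untreated one. These differences between times, taken relative to untreated cells, were not tested beyond the fits given above.

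A single library stood apart in 2 related values among 17 measures examined, where chance marks about 1 in 20 groups. siRNA 1 at 36 h had the highest hsa-miR-99a-3p level of the 6 siRNA-treated libraries, at 14.7 CPM (29 reads), and the highest 3p part of miR-99a, at 49.5 reads per 100000 of both arms. The same library held 876 CPM of the 3 muscle miRNAs, of which miR-1-3p alone made up 867 CPM. Whether the values are linked was not tested.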

How the results depend on the processing

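Each result was recomputed under other tests, scales, filters and sets of libraries. The 36 h libraries were left out because of the values described above. The fits without them that also change scale or test were chosen after seeing the data as well. In the fit of all libraries 0 members were called in every comparison. With all reads as the scale 1 member (miR-100-3p) was called for the mean of the times, for 48 h against untreated and for 48 h against 24 h, and with no count filter 2 were called for 48 h against 24 h. Without the 36 h libraries 3 were called for 48 h against untreated and 4 for 48 h against 24 h; over all miRNAs edgeR then called 117 and 134, 50 for the mean of the times and 13 for 24 h, against 0 in each from all libraries. On top of that, total miRNA counts gave 3 and 5 members (115 and 160 of 467 miRNAs), the size factors of DESeq2 3 and 4 (118 and 135), the DESeq2 test 2 and 4 (77 and 102), and all reads 2 and 1 (185 and 59), with 2 (196) for the mean of the times. Leaving out 1 library at a time gave 0 to 3 members for 36 h and for 48 h against untreated and 0 to 4 for 48 h against 24 h; the counts above 0 came without siRNA 1 or siRNA 2 at 36 h (36 h against untreated: without siRNA 1 alone). The siRNA numbers did not pair the libraries (correlations of 0.096, -0.25 and -0.16 between times), and the fit with the replicate block called 0 members in the 5 comparisons of times, as did the fit without it; for siRNA 2 against siRNA 1 the block is the tested term.

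Signs turned in 39 refits of single members. With all reads as the scale, the mean of the times against untreated became -0.66 for miR-99a-5p, -0.93 for miR-99b-5p, -1.06 for miR-99b-3p, -0.85 for miR-100-5p, -0.52 for miR-125a-5p, -0.84 for miR-125a-3p and -0.86 for miR-125b-5p, as the median of all miRNAs moved to -1.13. On that scale 48 h against 24 h became -0.14 for miR-99a-3p, -0.078 for miR-99b-5p and -0.15 for miR-125a-3p, and siRNA 2 against siRNA 1 became -0.029 for miR-99b-5p. For miR-99b-3p total counts gave 0.33 at 48 h against 24 h, and no filter gave -0.069 against untreated. Without the 36 h libraries siRNA 2 against siRNA 1 became -0.090 for miR-99b-5p and -0.056 for miR-125a-5p. With 1 library left out, the ranges that crossed 0 were -0.052 to 0.11 for miR-99b-3p against untreated, and -0.038 to 0.26 for miR-99a-3p and -0.13 to 0.10 for miR-99b-3p at 48 h against 24 h. For siRNA 2 against siRNA 1 they were -0.038 to 0.58 (miR-99a-5p), -0.15 to 0.25 (miR-99b-5p), -0.054 to 0.26 (miR-99b-3p), -0.035 to 0.60 (miR-100-5p), -0.16 to 0.52 (miR-125a-5p), -0.10 to 0.036 (miR-125a-3p) and -0.19 to 0.33 (miR-125b-5p). The mean arm shares and pair ratios moved by less than 1 SD. The 3p arms of miR-99a and miR-100 rest on at most 51 reads a library.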
